A study of Homo sapiens with 6 samples.

Results

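MHC class I antigen presentation was described by 9 genes of the 23524 in the FPKM table, taken by gene name: the heavy chain genes HLA-B, HLA-C, HLA-E and HLA-F, the light chain gene B2M, the peptide transport genes TAP1 and TAPBP, and the immunoproteasome genes PSMB8 and PSMB9. Each name matched 1 row of the table, which gives no HLA alleles. RNA-Seq was compared between Hep G2 controls (control, 3 libraries) and Hep G2 cells overexpressing EFTUD2 (EFTUD2, 3 libraries). EFTUD2 is a GTPase of the U5 spliceosome particle, and Hep G2 is a human liver tumor line. The paper describes stable Hep G2 cells infected with an EFTUD2 or a vector lentivirus and selected in puromycin. The sequenced controls are labelled only as control and were taken here to be the vector cells. Neither the promoter of the vector nor whether the stable cells were 1 clone is given in the sources used here. The labels do not say that the replicates were separate cultures, so the p-values measure only the spread between these libraries.

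Class I molecules carry peptides from inside the cell to its surface, where CD8 T cells read them. The proteasome cuts cytosolic proteins into peptides, the TAP1 and TAP2 transporter moves them into the endoplasmic reticulum, and tapasin (TAPBP) holds the transporter close to a waiting heavy chain paired with beta-2-microglobulin (B2M). Interferon gamma and NF-kB are known inducers of these genes, and the transactivator NLRC5 drives the heavy chain and B2M promoters, while normal hepatocytes hold class I at low levels.

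FPKM divides the fragments of a gene by its length and by the size of the library, so levels of different genes can be set side by side, but the number of reads behind a value is unknown. The FPKM values summed to 404342 to 434542 per library. Values below run in the order of replicates 1, 2 and 3 of a group. EFTUD2 itself had control values of 41.14, 54.35 and 46.34 FPKM and EFTUD2 values of 106.62, 102.9 and 109.48 FPKM. EFTUD2 replicate 3 stood apart: its log2 differences from EFTUD2 replicates 1 and 2 had an SD over genes of 0.51 and 0.60, against 0.23 between those replicates and 0.21 to 0.36 among the controls. Results that rest on this library are therefore given with and without it.

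The light chain and the heavy chains had higher FPKM values in the EFTUD2 cells, while the transporter, tapasin and PSMB8 overlapped between the groups. All 3 EFTUD2 libraries lay above all 3 controls for HLA-B, HLA-C, HLA-E, HLA-F and B2M, and no member lay below. HLA-C had a mean under the minimum of 0.1 FPKM, so 8 of the 9 members were among the 17224 genes tested, and 4 of these 8 lay above the controls in every EFTUD2 library, a pattern shown by 7.93% of all genes tested. The opposite pattern was shown by 19.4% of all genes tested and by 0 of the 8 members. After median-of-ratios scaling, 2289 genes lay above and 1915 below, against 1366 and 3337 on the values as deposited, and 5 of the 8 members lay above. No member passed an adjusted p under 0.05 in limma-trend with Benjamini-Hochberg adjustment over all genes, and neither did any other gene (0% called), the smallest adjusted p being 0.13. With libraries weighted by their spread, limma called 1355 genes and 3 members (HLA-B, HLA-F and B2M), with most of the weight on control replicate 3 and EFTUD2 replicate 1, and without EFTUD2 replicate 3 it called 131 genes and 0 members. At an unadjusted p under 0.05, limma found 3 of the 8 members higher (HLA-B, HLA-F and B2M) and 0 lower, beside 4.4% of all genes higher and 7.9% lower (757 and 1361 genes). Of these genes with a low unadjusted p, 35.7% were higher in EFTUD2 cells, but 61.4% were after median-of-ratios scaling of the libraries. The median log2 fold change of FPKM + 1 over the 8 members was 0.41, against -0.07 over all genes tested, and it was 0.30 without EFTUD2 replicate 3. RNA of whole cultures was measured, so more or fewer cells expressing a gene and more or less RNA per cell cannot be told apart.

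**Figure D1:**
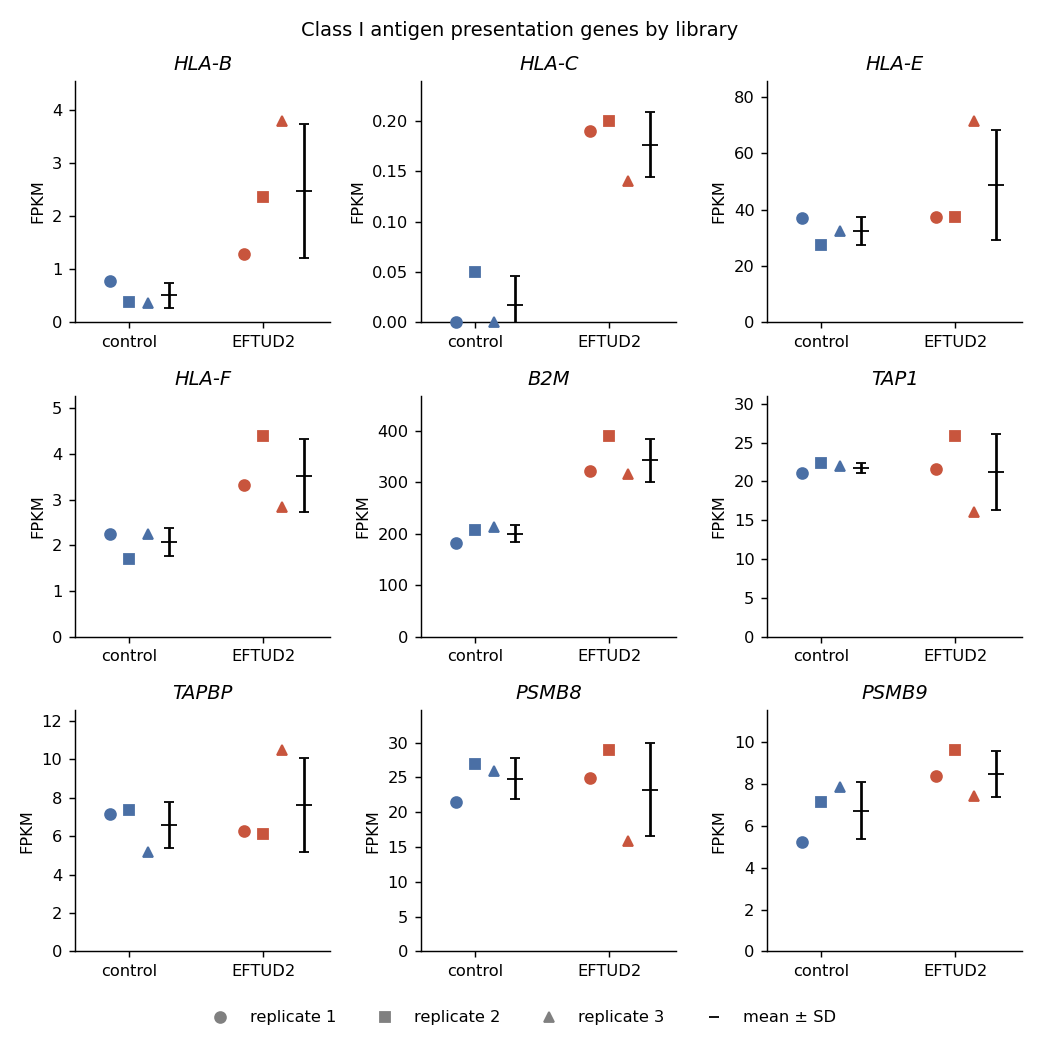
FPKM of the 9 class I genes in each library (linear axes from 0, 1 panel per gene, circles, squares and triangles for replicates 1 to 3, bars for mean ± SD of 3 libraries). The groups are separate for HLA-B, HLA-C, HLA-E, HLA-F and B2M and overlap for TAP1, TAPBP, PSMB8 and PSMB9, and EFTUD2 replicate 3 is the highest EFTUD2 library for HLA-B, HLA-E and TAPBP and the lowest for the other 6 genes.

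In the RefSeq gene table (GRCh38.p14), 8 of the 9 members lie on chromosome 6, in the major histocompatibility complex, and B2M lies on chromosome 15 at chr15:44711517-44718145. The heavy chain genes are HLA-F at chr6:29723434-29738532, HLA-E at chr6:30489509-30494194, HLA-C at chr6:31268749-31272092 and HLA-B at chr6:31353875-31357179. PSMB8 (chr6:32840717-32844679), TAP1 (chr6:32845209-32853704) and PSMB9 (chr6:32854192-32859851) follow each other in the class II region, with TAP1 and PSMB9 on opposite strands and their first transcribed bases 488 bases apart. TAPBP lies farther on, at chr6:33299694-33314078. PSMB9 lay above all controls in EFTUD2 replicates 1 and 2, and its neighbour TAP1 in replicate 2 alone.

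The promoters of 8 of the 9 members matched an entry of RefSeq (GRCh38.p14), each 250 bases before to 50 bases after the first transcribed base. The letters AANNGAAA, the core read by interferon regulatory factors, were found on either strand in 6 of these 8 promoters (HLA-B, HLA-C, HLA-F, B2M, TAP1 and TAPBP) and in 23.18% of 27305 promoters taken as 1 window per gene. The letters GGGNNTTCC, a form of the NF-kB site, were found in 3 of 8 (HLA-B, TAPBP and B2M) and in 6.603% of all. The B2M match, GGGCATTCC, ran from -4 to 4 with the first transcribed base as 0. It thus lay across that base, outside the stretch from 200 to 41 bases before it. Longer forms were not counted in any promoter, such as gggactttcc in TAP1 and its reverse complement ggaaagtccc in B2M. A promoter outside this count may therefore still hold another form of the site. CCAAT, read by NF-Y, was found in 6 of 8 against 35.7%, and TGACG, the core read by CREB factors, in 5 of 8 against 25.01%. TTCNNNGAA, the form read by STAT dimers, was found in 0 of 8 against 7.881%, and TATAAA in 0 of 8 against 11.95%. A match says only that these letters stand in the window. The stretches from 200 to 41 bases before the first transcribed base are shown for the 3 classical and nonclassical heavy chain genes with an entry, for B2M, which was higher in every EFTUD2 library, and for TAP1, which was not. They lie at chr6:31357220-31357379 (HLA-B, minus strand), chr6:31272133-31272292 (HLA-C, minus strand), chr6:29723234-29723393 (HLA-F, plus strand), chr15:44711317-44711476 (B2M, plus strand) and chr6:32853745-32853904 (TAP1, minus strand), and capitals mark AANNGAAA and GGGNNTTCC on either strand:
HLA-B: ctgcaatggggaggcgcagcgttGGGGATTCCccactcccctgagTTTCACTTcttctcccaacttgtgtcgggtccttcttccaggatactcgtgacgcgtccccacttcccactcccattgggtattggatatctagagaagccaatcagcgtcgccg
HLA-C: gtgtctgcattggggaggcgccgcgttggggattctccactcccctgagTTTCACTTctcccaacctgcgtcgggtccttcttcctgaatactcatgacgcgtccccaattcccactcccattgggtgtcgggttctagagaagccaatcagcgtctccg
HLA-F: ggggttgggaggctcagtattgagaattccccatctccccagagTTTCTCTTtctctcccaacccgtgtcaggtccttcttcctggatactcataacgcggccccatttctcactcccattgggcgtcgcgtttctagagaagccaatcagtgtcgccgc
B2M: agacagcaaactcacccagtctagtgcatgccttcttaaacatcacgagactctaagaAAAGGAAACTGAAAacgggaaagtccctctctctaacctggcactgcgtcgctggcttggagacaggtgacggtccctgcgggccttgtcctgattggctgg
TAP1: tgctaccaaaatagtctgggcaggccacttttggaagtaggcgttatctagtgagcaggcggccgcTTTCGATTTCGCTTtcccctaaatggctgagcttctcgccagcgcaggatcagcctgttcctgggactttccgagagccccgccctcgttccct
HLA-B held TTTCACTT from -155 to -148, counted from the first transcribed base as 0, and GGGGATTCC from -177 to -169. HLA-C held the same TTTCACTT from -151 to -144 with no match to GGGNNTTCC, and HLA-F held TTTCTCTT from -156 to -149. In both B2M and TAP1, a pair of AANNGAAA matches overlapped each other, AAAGGAAA and AACTGAAA in B2M from -142 to -129, and TTTCGATT and TTTCGCTT in TAP1 from -134 to -121. AANNGAAA was present in genes whose groups were separate (HLA-B, HLA-C, HLA-F, B2M) and in genes whose groups overlapped (TAP1, TAPBP).

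HLA-B, a classical heavy chain that presents peptides to CD8 T cells, was at 0.77, 0.38 and 0.36 FPKM in controls, against 1.28, 2.36 and 3.79 FPKM in EFTUD2 cells. Every EFTUD2 library lay above every control, and the EFTUD2 libraries spread over a wider range than the controls. The mean was 0.503 ± 0.231 FPKM (SD, n = 3) in control cells and 2.48 ± 1.26 FPKM (SD, n = 3) in EFTUD2 cells, a ratio of 4.92, and the ratio was 3.62 without EFTUD2 replicate 3. Its log2 fold change, computed on FPKM + 1 and so understated for a gene this low, was 1.16 (standard error 0.27), larger than that of 99.0% of all genes tested. Its adjusted p from limma was 0.39 (exact two-sided permutation test p = 0.1, the smallest that 3 against 3 libraries allow).

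HLA-C, the other classical heavy chain among the members, was close to the lowest values the table can hold, which has 2 decimals. It was listed at 0, 0.05 and 0 FPKM in controls and at 0.19, 0.20 and 0.14 FPKM with EFTUD2. The groups did not overlap, but a value of 0 here can be a gene without an estimate, and no fold change is given. With no filter on low values, limma gave HLA-C an adjusted p of 0.29.

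HLA-E, a nonclassical heavy chain that displays leader peptides of other class I chains to NK cell receptors, had control values of 37.14, 27.38 and 32.53 FPKM and EFTUD2 values of 37.40, 37.31 and 71.39 FPKM. The groups were separated by less than 1 FPKM: EFTUD2 replicates 1 and 2 lay just above control replicate 1, and replicate 3 lay far above both. On the log2 scale the difference was 0.52 (standard error 0.27, limma adjusted p = 0.43, exact permutation p = 0.1). Without EFTUD2 replicate 3 the log2 fold change was 0.21, and the ratio of the means moved from 1.51 to 1.15, so that most of the difference rested on 1 library. With each library scaled to a common sum, the groups overlapped.

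HLA-F, a nonclassical heavy chain that can reach the cell surface as an open form without peptide, was at 2.25, 1.71 and 2.26 FPKM in controls, against 3.33, 4.40 and 2.85 FPKM in EFTUD2 cells. Here replicate 3 was the lowest of the EFTUD2 libraries and still above the controls. The mean was 2.07 ± 0.315 FPKM (SD, n = 3) in control cells and 3.53 ± 0.793 FPKM (SD, n = 3) in EFTUD2 cells, a ratio of 1.70, and 1.86 without EFTUD2 replicate 3. The log2 fold change was 0.55 (standard error 0.17, limma adjusted p = 0.40, exact permutation p = 0.1).

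Heavy chain genes share sequence, and some overlap antisense transcripts. In the longest coding transcript of GENCODE release 29, 2.54% of the 50-base runs of HLA-B, 6.71% of those of HLA-C, 5.13% of those of HLA-E and 1.70% of those of HLA-F also occurred in transcripts of another gene on the same strand. On the opposite strand, 40.2% of the runs of HLA-F and 18.5% of those of HLA-B were found in other transcripts, against 0.27% for HLA-C and 0.86% for HLA-E. Whether the counting used strand is not given in the sources used here, so the HLA-F and HLA-B values are uncertain to that extent. How reads from HLA alleles that differ from the reference were handled is not given either. The runs come from the longest reference transcript of each gene, so they cannot show this. The levels of the heavy chains, and their shares of a sum, may depend on that handling.

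B2M, the light chain that class I heavy chains pair with to present peptide, was the most abundant member and, of the 8 tested, the one with the lowest p. It measured 181.37, 206.64 and 213.32 FPKM in controls and 321.68, 390.36 and 315.60 FPKM with EFTUD2. The lowest EFTUD2 library lay more than 100 FPKM above the highest control, and replicate 3 lay close to replicate 1. The mean was 200.4 ± 16.9 FPKM (SD, n = 3) in control cells and 343 ± 41.5 FPKM (SD, n = 3) in EFTUD2 cells, a ratio of 1.71 and 1.78 without EFTUD2 replicate 3. Limma gave a log2 fold change of 0.77 (standard error 0.13, unadjusted p = 0.00074), rank 49 of the 17224 genes by p, with a limma adjusted p of 0.26 and an exact permutation p of 0.1. Without EFTUD2 replicate 3 the log2 fold change was 0.82 and the adjusted p 0.058. B2M shared 0% of its 50-base runs with other genes on either strand.

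TAP1, a chain of the transporter that moves peptides into the endoplasmic reticulum, had control values of 21.04, 22.31 and 21.97 FPKM and EFTUD2 values of 21.59, 25.87 and 16.11 FPKM. The controls lay within a narrow band, and the EFTUD2 libraries lay inside, above and below it. The mean was 21.8 ± 0.657 FPKM (SD, n = 3) in control cells and 21.2 ± 4.89 FPKM (SD, n = 3) in EFTUD2 cells. This gave a log2 fold change of -0.06 (standard error 0.17, limma adjusted p = 0.87), and it was 0.11 without EFTUD2 replicate 3 and 0.07 after median-of-ratios or quantile scaling.

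TAPBP, tapasin, which bridges the transporter and the heavy chain, was at 7.17, 7.37 and 5.18 FPKM in controls, against 6.27, 6.13 and 10.47 FPKM in EFTUD2 cells. EFTUD2 replicates 1 and 2 lay within the range of the controls, and replicate 3 was the only one above it. The log2 fold change was 0.16 (standard error 0.23, limma adjusted p = 0.73) and -0.06 without EFTUD2 replicate 3. TAPBP shared 5.99% of its 50-base runs with other genes on the same strand and TAP1 1.07%, and 14.2% of the runs of TAP1 were found in transcripts of PSMB8-AS1 on the opposite strand.

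PSMB8, the immunoproteasome subunit that replaces PSMB5, measured 21.51, 26.99 and 25.98 FPKM in controls and 24.97, 28.89 and 15.92 FPKM with EFTUD2. Replicate 3 was again the lowest library, below all controls, and replicates 1 and 2 lay within or above the control range. Its log2 fold change was -0.12 (standard error 0.22, limma adjusted p = 0.79), and it was 0.12 without EFTUD2 replicate 3 and 0.01 after median-of-ratios or quantile scaling. On the opposite strand, 28.9% of its 50-base runs were found in other transcripts, those of PSMB8-AS1.

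PSMB9, the immunoproteasome subunit that replaces PSMB6, had control values of 5.22, 7.12 and 7.85 FPKM and EFTUD2 values of 8.37, 9.61 and 7.41 FPKM. EFTUD2 replicates 1 and 2 lay above all controls, and replicate 3 lay between control replicates 2 and 3. The log2 fold change was 0.30 (standard error 0.17, limma adjusted p = 0.45, exact permutation p = 0.2), 0.38 without EFTUD2 replicate 3 and 0.15 without control replicate 1. After median-of-ratios and quantile scaling the groups did not overlap, with log2 fold changes of 0.42 and 0.44 (limma adjusted p = 0.42 and 0.38). PSMB9 shared 12.1% of its 50-base runs with transcripts of PSMB8-AS1 on the same strand and 12.1% with transcripts of PSMB8 on the opposite strand. Part of the PSMB9 signal therefore cannot be assigned from sequence alone.

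In control cells the FPKM levels ran, from high to low, in the order B2M, HLA-E, PSMB8, TAP1, PSMB9, TAPBP, HLA-F, HLA-B and HLA-C. PSMB8 and TAP1 overlapped in their control values, as did PSMB9 and TAPBP, and the other neighbours in the order were separate. The order of the means was the same in EFTUD2 cells, where HLA-F and HLA-B overlapped as well. Among the EFTUD2 libraries, replicate 3 stood at 2.08 times the mean of replicates 1 and 2 for HLA-B, 1.91 times for HLA-E and 1.69 times for TAPBP. It stood at 0.89 times for B2M, 0.82 times for PSMB9, 0.74 times for HLA-F, 0.72 times for HLA-C, 0.68 times for TAP1 and 0.59 times for PSMB8. In this library 3 members were higher and 6 lower than in the mean of the other EFTUD2 libraries.

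**Figure D2:**
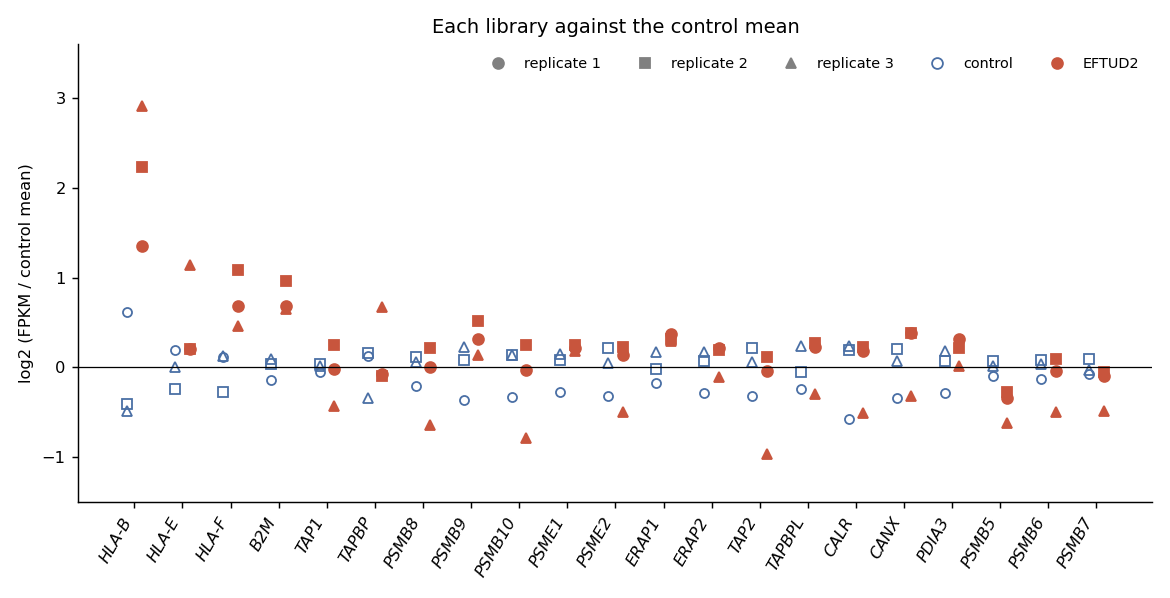
Each library's log2 ratio of FPKM to the control mean for 8 class I genes, the other genes of the pathway and the constitutive proteasome genes (open symbols control, filled symbols EFTUD2, shapes for replicates 1 to 3; HLA-C and HLA-G, near 0 FPKM, are not drawn). HLA-B, HLA-E, HLA-F, B2M, PSMB9, PSME1, ERAP1 and PDIA3 lie above the control mean in all 3 EFTUD2 libraries. EFTUD2 replicate 3 lies lowest for TAP1, PSMB8, PSMB10, PSME2, TAP2, TAPBPL, PSMB5, PSMB6 and PSMB7.

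Ratios of FPKM within a library do not change when a library is scaled by 1 factor. The ratio of PSMB9 to PSMB6 was 0.0572, 0.0675 and 0.0768 in control replicates 1 to 3 and 0.0863, 0.0905 and 0.105 in EFTUD2 replicates 1 to 3. All EFTUD2 libraries, replicate 3 included, lay above the controls, a 1.40-fold difference (log2 difference 0.49, exact two-sided permutation p = 0.1). In replicate 3 PSMB6 was at 70.39 FPKM, below every control (91.21, 105.48 and 102.24 FPKM), and PSMB9 lay within the control range, while in replicates 1 and 2 PSMB6 was at 97.01 and 106.2 FPKM. The ratio of PSMB8 to PSMB5 was 0.0805 ± 0.0053 in control cells and 0.0984 ± 0.0172 in EFTUD2 cells (SD, n = 3 each), with overlapping groups (log2 difference 0.28, exact permutation p = 0.3). The third pair, PSMB10 to PSMB7, was 0.112 ± 0.0160 and 0.115 ± 0.0232 (SD, n = 3 each, log2 difference 0.04, exact permutation p = 0.9). Of the 3 immunoproteasome subunits, only PSMB9 had a larger ratio to its constitutive partner in every EFTUD2 library than in every control. This distinction from PSMB8 rested on EFTUD2 replicate 3. The ratio of PSMB8 to PSMB5 was 0.103 and 0.113 in EFTUD2 replicates 1 and 2, above every control, and 0.0796 in replicate 3. Without EFTUD2 replicate 3 the log2 differences were 0.42 for PSMB8 to PSMB5, 0.41 for PSMB9 to PSMB6 and 0.20 for PSMB10 to PSMB7. No p was adjusted over the 4 ratios fixed for test, since none could fall below 0.1.

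The ratio of B2M to the sum of HLA-B, HLA-C, HLA-E and HLA-F was 4.52, 7.0 and 6.07 in control replicates 1 to 3 and 7.62, 8.82 and 4.04 in EFTUD2 replicates 1 to 3. EFTUD2 replicate 3 had the lowest ratio of the 6 libraries and the other EFTUD2 libraries the highest, so the groups overlapped (log2 difference 0.17, exact permutation p = 0.7; 0.51 without EFTUD2 replicate 3). Within the summed FPKM of these heavy chains, HLA-E made up 92.5 to 92.8% in controls and 84.3 to 91.3% in EFTUD2 cells. HLA-B made up 1.02 to 1.92% in controls and 3.03 to 5.33% in EFTUD2 cells, higher in every EFTUD2 library, and HLA-C reached at most 0.452%. HLA-F made up 5.60 to 6.43% in controls and 7.89 and 9.94% in EFTUD2 replicates 1 and 2, but 3.65% in replicate 3, the lowest of the 6 libraries.

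**Figure D3:**
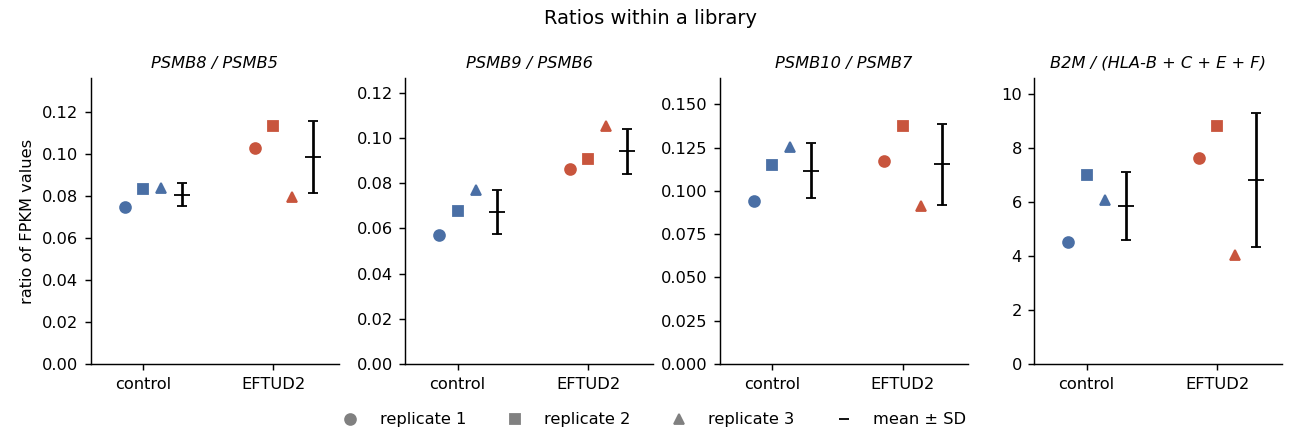
Ratios of FPKM values within each library (linear axes from 0, circles, squares and triangles for replicates 1 to 3, bars for mean ± SD of 3 libraries). For PSMB9 to PSMB6 the EFTUD2 libraries (0.0863 to 0.105) lie above the controls (0.0572 to 0.0768), and in the other 3 panels the groups overlap.

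For the lists below, the share of all genes tested was 7.93% above and 19.4% below the controls in every EFTUD2 library. At an unadjusted p under 0.05 in limma it was 4.4% higher and 7.9% lower. The other genes of the pathway were taken as a list of 11, of which 10 were tested. None had an adjusted p under 0.05 in limma, 1 was higher at an unadjusted p under 0.05 (ERAP1) and 0 lower, and 2 lay above the controls in every EFTUD2 library (ERAP1 and PSME1) and 0 below, with a median log2 fold change of 0.08. ERAP1, the peptidase that trims peptides in the endoplasmic reticulum, measured 7.52, 8.42 and 9.53 FPKM in controls and 10.95, 10.56 and 10.43 FPKM with EFTUD2. PSME1, a subunit of the proteasome activator PA28, had control values of 155.84, 199.19 and 207.90 FPKM and EFTUD2 values of 217.68, 223.29 and 213.12 FPKM. For both, the groups were separate by a margin smaller than the range of the controls.

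TAP2, the partner chain of TAP1, was at 11.34, 16.42 and 14.79 FPKM in controls, against 13.81, 15.37 and 7.25 FPKM in EFTUD2 cells. PSMB10, the remaining immunoproteasome subunit, measured 11.73, 16.20 and 16.24 FPKM in controls and 14.40, 17.52 and 8.57 FPKM with EFTUD2. Both overlapped between the groups and were lowest in EFTUD2 replicate 3, as were TAP1 and PSMB8. All 10 tested genes of this list were lower in EFTUD2 replicate 3 than in the mean of EFTUD2 replicates 1 and 2. That library also had the lowest median-of-ratios size factor, 0.858 against 0.997 and 1.01 for EFTUD2 replicates 1 and 2. This factor is a median over the genes found in every library and averaging 1 FPKM or more, not over all genes. HLA-G was listed at no more than 0.09 FPKM in any library.

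Of the constitutive subunits that the immunoproteasome subunits replace, 1 of 3 lay below the controls, a pattern shown by 19.4% of all genes tested. PSMB5, the partner of PSMB8, had control values of 288.88, 323.52 and 310.24 FPKM and EFTUD2 values of 243.45, 255.36 and 200.03 FPKM, lower in every EFTUD2 library. Its log2 fold change was -0.41 (standard error 0.13, limma adjusted p = 0.40), and PSMB6 and PSMB7 overlapped between the groups (-0.14 and -0.21), which gave a median of -0.21 over the 3 genes.

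**Figure D4:**
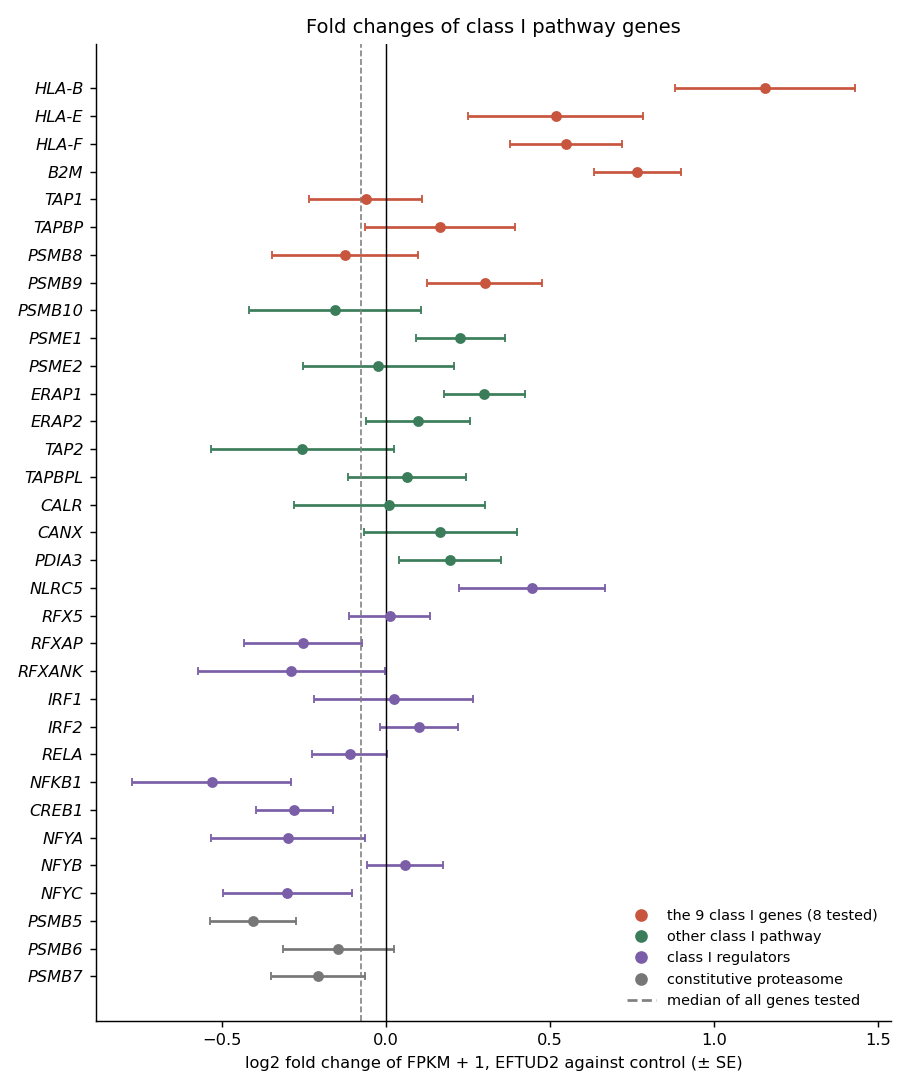
Log2 fold change of FPKM + 1 between EFTUD2 and control cells with its standard error from limma for 8 class I genes, the other genes of the pathway, the class I regulators and the constitutive proteasome genes, with the median of all genes tested (-0.07) as a dashed line. HLA-B (1.16) and B2M (0.77) stand farthest to the right, TAP1 (-0.06) and PSMB8 (-0.12) lie near the dashed line, and no gene passed an adjusted p under 0.05.

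Factors that drive class I promoters were taken as a list of 12, all tested. None of the 12 lay above the controls in every EFTUD2 library and 2 (NFKB1 and CREB1) lay below, beside 7.93% and 19.4% of all genes tested. At an unadjusted p under 0.05 in limma, 0 were higher and 1 (CREB1) lower, with a median log2 fold change of -0.18. NLRC5, the class I transactivator, was at 1.97, 2.39 and 2.75 FPKM in controls, against 4.14, 4.58 and 2.33 FPKM in EFTUD2 cells. EFTUD2 replicates 1 and 2 lay above all controls and replicate 3 lay among them, and the log2 fold change was 0.45 (standard error 0.22, limma adjusted p = 0.42). NFKB1, the NF-kB p105 and p50 gene, measured 13.23, 13.74 and 12.03 FPKM in controls and 10.97, 10.58 and 5.54 FPKM with EFTUD2.

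Interferon signalling genes were taken as a list of 12, of which 11 were found by symbol, IFNG not among them, and 10 were tested. At an unadjusted p under 0.05, 0 were higher and 0 lower (median log2 fold change -0.08). IFNGR2, a chain of the interferon gamma receptor, lay above the controls in every EFTUD2 library (37.70 to 41.38 FPKM in controls, 46.58, 43.66 and 68.76 FPKM in EFTUD2 replicates 1 to 3). Its ratio of means was 1.36, and 1.15 without EFTUD2 replicate 3. The other chain, IFNGR1, overlapped between the groups (ratio 1.40, and 1.67 without EFTUD2 replicate 3). The kinase TYK2 lay below the controls in every EFTUD2 library (15.48 to 16.09 and 10.71 to 15.16 FPKM, ratio 0.84, and 0.93 without EFTUD2 replicate 3). The transcription factor IRF1, a gene that interferon gamma induces, had control values of 10.53, 6.83 and 7.22 FPKM and EFTUD2 values of 8.30, 10.97 and 6 FPKM. Its groups overlapped, with a log2 fold change of 0.02.

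Class I-like genes, taken as a list of 10 with 8 tested, showed 2 genes higher at an unadjusted p under 0.05 (MICA and MICB, ligands of the NK receptor NKG2D) and 0 lower, with a median log2 fold change of 0.08. MICB was at 7.30, 7.55 and 7.38 FPKM in controls, against 8.22, 9.63 and 11.85 FPKM in EFTUD2 cells, above the controls throughout. MICA was higher in mean (3.86 ± 0.979 and 6.23 ± 1.44 FPKM, SD, n = 3 each), with groups that overlapped. MR1, which presents vitamin metabolites, lay below the controls in every EFTUD2 library, at 2.60 to 3.05 FPKM in controls and 2.29 to 2.41 FPKM in EFTUD2 cells. Class II genes, a list of 10 with 3 tested, had 0 above and 0 below, a median of 0.09, HLA-DRA at 0 in all libraries and CD74 at 60.54 to 75.25 FPKM.

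Markers of the line and of other cells were checked beside these results. The 8 hepatocyte markers summed to 6375.73 to 9906.79 FPKM in controls and to 8473.58 to 12982.1 FPKM in EFTUD2 cells. Of these, 2 lay above the controls in every EFTUD2 library and 0 below: SERPINA1, at 1937.3, 1901.41 and 2448.16 FPKM against 3074.73, 3190.37 and 3642.3 FPKM (log2 fold change 0.66, limma adjusted p = 0.40), and APOB (0.28). Of the 8 log2 fold changes, 5 were positive and 3 negative, those of AFP (-0.40), TTR (-0.28) and HNF4A (-0.23), whose groups overlapped. The leukocyte list summed to 751.04 to 2271.97 FPKM in controls and 859.09 to 1735.52 FPKM in EFTUD2 cells, nearly all of it LYZ, and 2 of its 5 tested genes lay above the controls. CD14 was at 0.86, 0.60 and 1.03 FPKM in controls, against 1.41, 2.06 and 2.51 FPKM in EFTUD2 cells (log2 fold change 0.70, limma adjusted p = 0.40), and CORO1A had a log2 fold change of 0.30. PTPRC reached at most 0.02 FPKM, and CD3E and TYROBP were at 0 in all libraries. The 5 endothelial markers summed to 1.09 to 1.53 and 1.29 to 1.60 FPKM, with CDH5 and VWF above the controls and PECAM1 below among 3 tested. CDH5 passed the minimum of 0.1 FPKM only through the EFTUD2 libraries (mean 0.07 FPKM in controls and 0.25 FPKM with EFTUD2). The 7 fibroblast markers summed to 0.51 to 1.58 and 2.33 to 4.82 FPKM, a range wholly above the controls, and 4 were tested. COL3A1 and LUM passed the minimum of 0.1 FPKM only through the EFTUD2 libraries, so the direction of these genes was fixed in advance. PDGFRB overlapped between the groups, at 1.43, 0.41 and 1.05 FPKM in controls and 1.1, 0.68 and 2.07 FPKM in EFTUD2 cells. In EFTUD2 replicate 3, PDGFRB made up most of the sum of 2.33 FPKM. COL3A1 was listed at 0 in all controls and at 0.62, 1.49 and 0.14 FPKM with EFTUD2. COL1A1 was at 0.15, 0.09 and 0.10 FPKM in controls, against 0.78, 2.05 and 0.11 FPKM in EFTUD2 cells, and LUM was likewise highest in EFTUD2 replicates 1 and 2 (0.35 and 0.56 FPKM, at most 0.01 FPKM elsewhere). COL1A2 was at 0 in all libraries and THY1 at no more than 0.01 FPKM. The part of the hepatocyte, leukocyte, endothelial and fibroblast genes in the class I values was not tested.

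Across the 6 libraries, the mean of log2(FPKM + 1) over the 8 tested members was 3.74, 3.73 and 3.75 in control replicates 1 to 3 and 4.02, 4.24 and 4.18 in EFTUD2 replicates 1 to 3. Of 12494 other genes with an average of 1 FPKM or more, 46 had a Pearson r of at least 0.95 over the 6 libraries with the members' mean, and the 5 most alike were HHIPL2 (0.998), AVPI1 (0.996), TNFAIP2 (0.995), GABRE (0.991) and ATP5MC2 (0.989). These values describe 6 points in 2 groups, so a gene with separate groups and similar spread gives a high r. HHIPL2 and TNFAIP2 reached an average of 1 FPKM only through the EFTUD2 libraries, so their direction was fixed in advance. HHIPL2 was at 0.80, 0.74 and 0.87 FPKM in controls and at 1.55, 2.29 and 2.13 FPKM with EFTUD2. The members, each a part of the mean, followed it unequally. Their r was 0.96 for B2M, 0.93 for HLA-B, 0.88 for HLA-F and 0.65 for HLA-E and PSMB9. It was 0.32 for TAPBP, -0.11 for TAP1 and -0.22 for PSMB8, so likeness to the mean is not likeness to every member. TNFAIP2, a gene known to be induced by tumor necrosis factor, measured 0.60, 0.43 and 0.56 FPKM in controls and 1.64, 2.91 and 2.28 FPKM with EFTUD2.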

How the data were processed

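RNA of 6 Hep G2 libraries (3 control, 3 EFTUD2) was extracted with TRIzol, enriched by poly-A selection and sequenced on the BGISEQ-500 platform. The authors deposited FPKM per gene and library, rounded to 2 decimals. The submitters' processing notes name HISAT2, Bowtie2, RSEM, DESeq2 and hg38; versions, annotation and strand use are not given in the sources used here. Low values were searched for a step shared between libraries (genes at 0.05 to 0.3 FPKM), and no ratio against control replicate 1 was shared by over 7.616% of them, so depth is unknown and no counting interval can be given.

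Groups and replicate numbers were taken from the labels. The deposited FPKM were put on the scale log2(FPKM + 1), and genes averaging 0.1 FPKM or more were tested in limma 3.58.1 (lmFit, eBayes with trend, R 4.3.3), with p-values adjusted over all of them by Benjamini-Hochberg and a threshold of 0.05. Single genes and within-library ratios were also tested by permuting the labels exactly (two-sided, smallest possible p 0.1). The members and lists were chosen with earlier results of these data known. The 9 members are named with their values. Genes of the lists (other class I pathway, class I regulators, constitutive proteasome, interferon signalling, class I-like, class II, and hepatocyte, leukocyte, endothelial and fibroblast markers) are given as counts, and those that average 1 FPKM or more or have groups that do not overlap may be named, as may the 5 genes most like the members. Genes named only for being at or near 0 (HLA-G, HLA-DRA, PTPRC, CD3E, TYROBP, COL1A2 and THY1), and COL1A1 and LUM, were chosen after their values were seen. The lists leave out a few genes that are not reported here. Sequences and motifs came from RefSeq (GRCh38.p14), shared 50-base runs from GENCODE release 29. Alternatives were pseudocounts of 0.1 and 0.01, a filter at 1 FPKM or none, median-of-ratios, quantile and common-sum scaling, robust empirical Bayes, array weights, a replicate block and each library left out in turn. Python 3.11.15, pandas 2.3.3 and matplotlib 3.10.9 were used.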

Additional observations from a re-analysis of the deposited data

How the results depend on the processing

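Of 128 log2 fold changes of single members under the alternatives, 117 kept their direction and their side of the threshold, 8 changed sign and 3 passed the threshold. Weighting the libraries (array weights of 0.48, 1.02 and 3.54 for control replicates 1 to 3 and 4.11, 1.16 and 0.12 for EFTUD2 replicates 1 to 3) called 1355 genes and 3 members, HLA-B (log2 fold change 0.85, adjusted p 0.026), HLA-F (0.53, 0.035) and B2M (0.68, 0.0097). Leaving out each library in turn called 0 to 131 genes, 131 of them without EFTUD2 replicate 3, and no member. The count of members above all controls, 4, was 3 to 5. The members' median log2 fold change, 0.41, was 0.30 with no filter, 0.54 with median-of-ratios scaling, 0.51 with quantile scaling, 0.22 with array weights and 0.30 to 0.47 with 1 library left out. TAP1 turned to 0.073 with median-of-ratios scaling, 0.070 with quantile scaling and 0.022 with array weights, and ranged from -0.21 to 0.11 with 1 library left out. PSMB8 turned to 0.010 and 0.0087 with median-of-ratios and quantile scaling and ranged from -0.29 to 0.12, and TAPBP ranged from -0.060 to 0.28. The log2 difference of the ratio of PSMB10 to PSMB7 ranged from -0.10 to 0.20, and that of B2M to the heavy chains from -0.056 to 0.51. The cause of these changes was not tested.

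Deviations of same-numbered libraries from their group means correlated at -0.30, 0.35 and -0.09, so the numbers were not taken to pair the samples, and not every library correlated best with its own number. With the replicate block, 0 genes were called, the members' median stayed at 0.41 and B2M had an adjusted p of 0.42. Read depth is unknown, which limits what can be said of HLA-C and HLA-G, listed near 0.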
